A study of Mus musculus with 18 samples.

Results

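The PAR bZIP genes *Dbp*, *Tef* and *Hlf*, together with *Nfil3*, were followed over 1 day in mouse liver. These 4 genes were taken by symbol from the table of normalized values, and all 4 were among the 14449 genes with reads in at least 1 liver. The livers came from 18 WT male mice of 8 to 9 weeks, kept under 12 h of light and 12 h of dark, with 3 mice at each of ZT1, ZT5, ZT9, ZT13, ZT17 and ZT21. Zeitgeber time (ZT) counts the hours from lights on, so that ZT1, ZT5 and ZT9 fall in the light and the other times in the dark. All mice shared the same genotype and housing, each liver was harvested once, and the mice sequenced at each time were those with the best RNA, so every comparison is between different animals.

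DBP, TEF and HLF are basic leucine zipper proteins with a domain rich in proline and acidic residues (PAR), and they activate genes through a DNA element called the D-box. NFIL3, also called E4BP4, binds the same element and represses it. In the liver clock, CLOCK and BMAL1 drive *Dbp* through E-boxes, while *Nfil3* is under the control of the ROR activators and the REV-ERB repressors, which share the ROR element. PAR bZIP factors are known in this tissue for their control of genes of drug, haem and bile acid metabolism.

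The values are estimated read counts that the authors normalized with limma. Their scale is not stated in the sources used here. It was inferred from the files, taking the lowest value of each liver, between 0.0208 and 0.0478, as 0 reads with an offset of 0.5 and the scale as 1000000 reads, and all numbers of estimated reads given here rest on that inference. On this basis the livers had a median of 12078875 estimated reads, with a lowest of 10268168 and a highest of 23242842. The hepatocyte markers *Alb*, *Apoa1*, *Ttr*, *Cps1* and *Tat* added up to between 65680 and 95870 in every liver. The 3 ZT9 livers, with 65680 to 69650, were below all others, of which the lowest had 71670. Most of this sum was *Alb*, with a mean of 52950 at ZT9. *Alb*, *Ttr* and *Tat* had their lowest means at ZT9, but *Cps1* had its lowest at ZT1 and *Apoa1* at ZT17. The third ZT5 liver had the deepest library and stood apart from the other 2 livers of its time for all 4 genes, as described with the values.

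On GRCm38, *Dbp* (ENSMUSG00000059824) lies on the plus strand at chr7:45705088-45710203, *Tef* (ENSMUSG00000022389) on the plus strand at chr15:81802421-81826863, *Hlf* (ENSMUSG00000003949) on the minus strand at chr11:90336536-90390895, and *Nfil3* (ENSMUSG00000056749) on the minus strand at chr13:52967209-52981073. The 250 bases before each RefSeq start were searched on both strands for the E-box CACGTG, the D-box TTACGTAA or TTATGTAA, the ROR element core AGGTCA and the cAMP response element TGACGTCA, which do not overlap one another in these windows. All 4 genes were matched in RefSeq (GRCm38.p6), *Tef* with 2 starts. The 4 sequences that held a match are shown, because these elements are the ones through which clock and signalling factors are known to act on such genes. Capitals mark the matched letters, and each sequence reads 5′ to 3′ on the strand of its gene. The window of the downstream *Tef* start is chr15:81811164-81811413 on the plus strand, and that of *Hlf* is chr11:90390918-90391167 on the minus strand. The sites at the upstream *Tef* start and at *Nfil3* lie inside annotated exons and are shown with up to 10 bases on either side.
Tef, downstream start: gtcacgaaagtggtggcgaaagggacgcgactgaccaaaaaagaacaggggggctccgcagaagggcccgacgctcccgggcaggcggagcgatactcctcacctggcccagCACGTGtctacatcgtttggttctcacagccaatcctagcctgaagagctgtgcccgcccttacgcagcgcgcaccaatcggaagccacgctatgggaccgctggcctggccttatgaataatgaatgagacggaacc
Tef, upstream start: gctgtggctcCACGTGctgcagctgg
Hlf: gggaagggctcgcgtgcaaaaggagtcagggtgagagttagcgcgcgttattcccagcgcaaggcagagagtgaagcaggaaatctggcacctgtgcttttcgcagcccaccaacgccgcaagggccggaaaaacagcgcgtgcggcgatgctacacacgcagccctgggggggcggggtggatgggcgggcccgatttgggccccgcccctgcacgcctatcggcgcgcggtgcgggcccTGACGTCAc
Nfil3: cgctcggaacTGACCTactaac

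Both *Tef* starts thus had an E-box, beginning 138 bases before the downstream start and 127 bases before the upstream one, and 6.02% of the 32851 RefSeq promoter windows held these letters. *Hlf* had a cAMP response element 9 bases before its start, found in 1.55% of windows. The *Nfil3* match, 12 bases before the start, is the ROR core read on the opposite strand, a short element present in 14% of windows. The *Dbp* window held none of the letters searched, and none of the members' windows held the D-box, found in 0.931% of windows. A match is a run of letters and not a measured binding site, and the absence of a match concerns these 250 bases only.

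*Dbp*, the PAR bZIP gene known as a direct target of CLOCK and BMAL1, went from close to 0 at ZT1 to its highest level at ZT9. Its normalized values were 0.338, 0.439 and 0.148 in the 3 livers of ZT1, then 60.3, 68.3 and 83.2 at ZT5, and 106, 112 and 113 at ZT9. In the dark they were 9.89, 12.2 and 16.2 at ZT13, then 1.92, 2.36 and 1.55 at ZT17, and 1.01, 1.29 and 0.515 at ZT21. Every liver of ZT9 was above every liver of ZT5, and so on down through ZT13, ZT17, ZT21 and ZT1, so that no 2 neighbouring times in this order overlapped. The mean was 111 ± 3.71 (SD, n = 3) at ZT9 and 0.308 ± 0.148 at ZT1, a ratio of 359. At ZT1 the 3 livers together held only 9.76 estimated reads of *Dbp*, against 3661 at ZT9. Without the inferred offset the ratio was 406, with a 95% interval of 219 to 857 that covers counting error only. Even the lowest ZT9 liver was 242-fold above the highest ZT1 liver. As in all that follows, fewer cells of a type and less RNA per cell cannot be told apart in whole liver.

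*Tef* had its highest level at ZT9 as well, but never came near 0. The livers of ZT1 had 27.03, 25.4 and 29.2, those of ZT5 had 151, 148 and 203, and those of ZT9 had 261.5, 242 and 267. In the dark the values were 163, 175 and 169 at ZT13, 104, 112 and 109 at ZT17, and 60.2, 64.7 and 61.5 at ZT21. ZT13 and ZT5 overlapped, and every other pair of neighbours in the order of the levels was separate. The mean of ZT9, 257 ± 13.0 (SD, n = 3), was 9.43-fold that of ZT1, 27.2 ± 1.90.

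*Hlf*, the third PAR bZIP gene, had a broader and shallower curve and was highest after lights off. Its values were 33.05, 27.97 and 27.3 at ZT1, 46.8, 53.6 and 62.7 at ZT5, and 73.4, 62.5 and 68.0 at ZT9. In the dark they were 83.0, 86.3 and 78.7 at ZT13, 64.9, 63.9 and 54.6 at ZT17, and 36.9, 47.4 and 35.8 at ZT21. The 3 livers of ZT13 were above all others and those of ZT1 below all others, while ZT9, ZT17, ZT5 and ZT21 each overlapped the next in this order. The mean was 82.7 ± 3.81 (SD, n = 3) at ZT13 and 29.4 ± 3.15 at ZT1, a ratio of 2.81.

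*Nfil3*, the repressor, was highest when the PAR bZIP genes were lowest. Its values were 57.5, 77.2 and 73.3 at ZT1, 12.8, 13.6 and 9.84 at ZT5, and 11.3, 13.1 and 10.8 at ZT9. In the dark they were 28.6, 26.6 and 24.7 at ZT13, 35.4, 37.2 and 44.1 at ZT17, and 41.4, 44.9 and 42.1 at ZT21. ZT5 and ZT9 overlapped, as did ZT17 and ZT21, and the other neighbours in the order were separate. The mean was 69.3 ± 10.4 (SD, n = 3) at ZT1 and 11.7 ± 1.20 at ZT9, a ratio of 5.91.

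**Figure D1:**
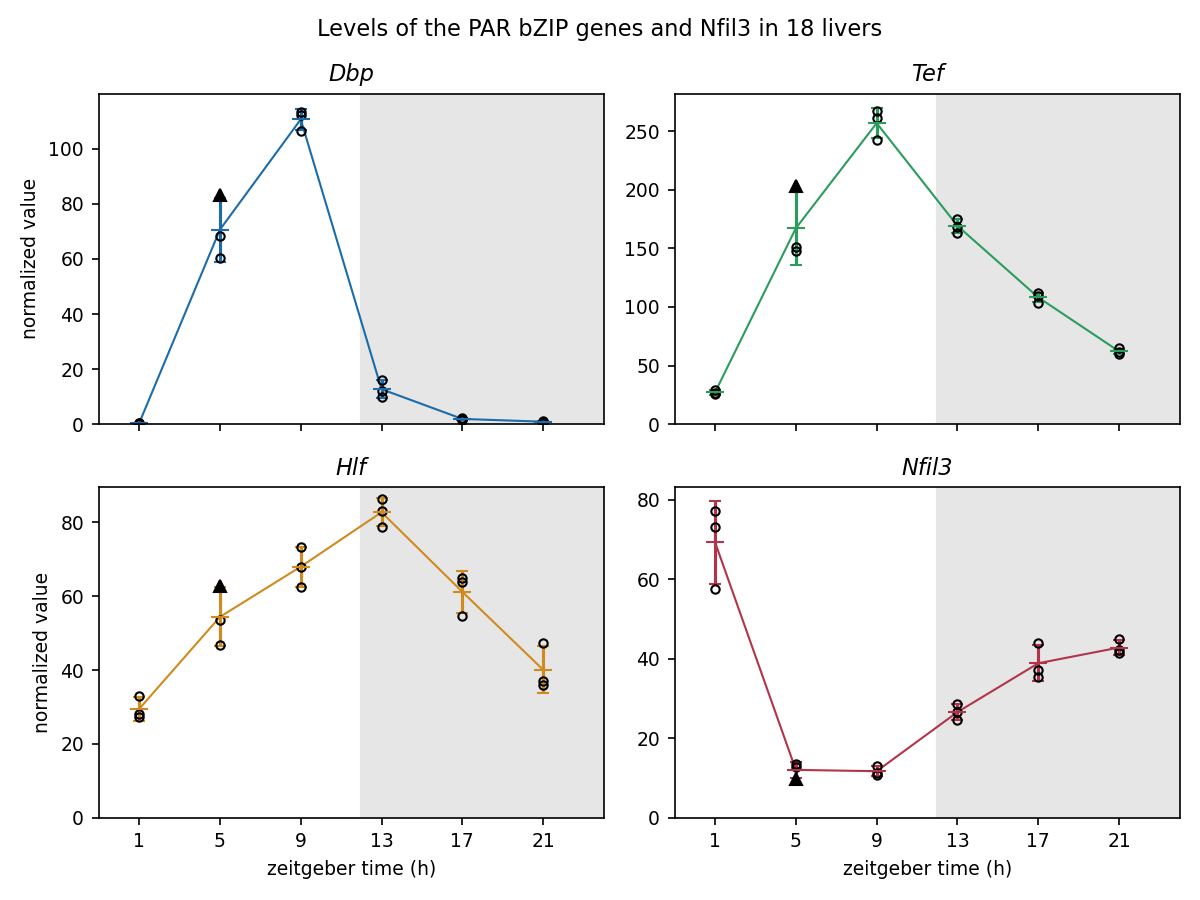
Normalized value (linear axis from 0) of *Dbp*, *Tef*, *Hlf* and *Nfil3* against zeitgeber time, 1 symbol per liver, with the mean and SD of the 3 livers of each time; the dark phase is shaded and the triangle is the third ZT5 liver. *Dbp* and *Tef* were highest at ZT9, *Hlf* at ZT13 and *Nfil3* at ZT1, and the triangle lies above the other ZT5 livers for the 3 PAR bZIP genes and below them for *Nfil3*.

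At ZT5 the third liver was the highest of its time for each PAR bZIP gene and the lowest for *Nfil3*. Against the mean of the other 2 livers, *Dbp* was 1.30-fold, *Tef* 1.36-fold and *Hlf* 1.25-fold higher, and *Nfil3* was 0.747-fold. With 1 liver against 2 this has no test. The part that its depth, 23242842 estimated reads, has in these values was not tested. Without this liver all 4 genes were still called by the tests of time given next, and the fitted peak hours moved from 8.59 to 8.74 for *Dbp*, 10.7 to 11.01 for *Tef*, 12.02 to 12.3 for *Hlf* and 20.7 to 21.04 for *Nfil3*.

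The first question was whether each gene varied over the day. By limma's moderated *F* test over the 6 times, on log2(value + 1), all 4 genes were called at an adjusted *P*-value under 0.05, where 26.3% of the genes tested were called. *Dbp* had the lowest adjusted *P*-value of the 14449 genes in that limma test (3.82e-12). *Tef* had the next lowest (4.35e-10), which at least 1 other gene shared. The values were 1.84e-08 for *Nfil3* and 9.60e-06 for *Hlf*. A 24 h cosine called all 4 genes and 35.3% of the genes tested, and JTK, a rank test, called all 4 genes and 14.1% of the genes tested. The cosine that JTK matched best had a period of 20 h, the shortest tried, for *Dbp* and *Tef*, and 24 h for *Hlf* and *Nfil3*. With periods of 24 h only, JTK called all 4 genes as well. The JTK null distribution treated the 6 times as separate groups. Some of its cosine orders give equal values to different times, and for these the null is not exact. With equal values taken as 1 group, an alternative chosen after seeing the data, JTK called 3237 genes in place of 2039. All 4 genes were called there too. Between 14.1% and 35.3% of the table passed these tests, so a call by itself does not set these genes apart.

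On log2(value + 1), the fitted amplitude, the distance from the mean of the curve to its peak, was 3.30 ± 0.31 (SE, n = 18) for *Dbp*, the largest of the 14449 genes on this scale. That of *Tef* was 1.34 ± 0.16, that of *Nfil3* 1.09 ± 0.16 and that of *Hlf* 0.66 ± 0.06, which ranked 31, 79 and 320, whereas the median over all genes was 0.16. The adjusted *P*-values of the limma cosine test were 1.91e-06 for *Dbp*, 2.97e-05 for *Tef*, 2.67e-06 for *Hlf* and 0.000274 for *Nfil3*. By JTK, with the times as separate groups in the null, they were 0.0148, 0.0104, 0.0055 and 0.0349. The JTK call of *Nfil3* was lost when the second ZT5 liver, any 1 ZT9 liver or any 1 ZT13 liver was left out. The JTK adjusted *P*-values were then 0.0562 to 0.0730 with that null, and the other JTK null was not run without single livers.

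The fitted peaks came in the order *Dbp*, *Tef*, *Hlf* and *Nfil3*. *Dbp* peaked at ZT 8.59 ± 0.36 h (SE, n = 18), *Tef* at 10.7 ± 0.46, *Hlf* at 12.0 ± 0.37 and *Nfil3* at 20.7 ± 0.58. Because all genes were measured in the same livers, the differences were estimated within livers for the 6 pairs, as values with 95% intervals and no test. *Tef* followed *Dbp* by 2.10 h (1.49 to 2.71) and *Hlf* followed *Tef* by 1.33 h (0.445 to 2.22). *Hlf* came 3.43 h (2.51 to 4.35) after *Dbp*. *Nfil3* came 8.70 h (7.45 to 9.95) after *Hlf* and 10.03 h (9.31 to 10.75) after *Tef*. *Nfil3* peaked 12.13 h (11.54 to 12.72) after *Dbp*. Its fitted hour of 20.7 lies close to ZT21, whereas its highest values were at ZT1. There the livers had 57.55 to 77.17, against 41.45 to 44.95 at ZT21. The lags to *Nfil3* therefore describe the fitted cosine and not its highest sampled time. None of the 6 intervals included 0, although the livers were 4 h apart and the hours come from a fitted curve. The SEs and intervals rest on the scatter of the livers around the plain 24 h cosine. For *Dbp*, *Tef* and *Nfil3* this scatter also holds the departure from that curve described next, which the livers of a time share. The intervals therefore do not measure the spread between livers alone.

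A plain 24 h cosine did not describe all 4 curves equally well. It took up 86.2% of the variance of *Dbp*, 79.1% of that of *Tef*, 87.3% of that of *Hlf* and 70.8% of that of *Nfil3*. When a 12 h cosine was added the shares became 97.5%, 95.8%, 90.4% and 93.4%. This 12 h term was called for 3 of the 4 genes, where 0.872% of the genes tested were called, with limma adjusted *P*-values of 0.00212 for *Dbp*, 0.00429 for *Tef* and 0.00664 for *Nfil3*. *Hlf* had 0.573 in the same limma test. The values by liver show the departure as a steep side on the curve, since on the log2 scale most of the climb of *Dbp* and *Tef* and nearly all of the drop of *Nfil3* lay between ZT1 and ZT5, and the way back took longer.

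The 6 steps between neighbouring times showed where each gene moved. Of the 24 steps of these 4 genes, 13 were called. From ZT1 to ZT5, where 4.89% of the genes tested were called, all 4 genes changed. *Dbp* rose by 5.77 ± 0.18 (SE) on the log2(value + 1) scale, *Tef* rose by 2.56 ± 0.11, *Hlf* rose by 0.86 ± 0.13 and *Nfil3* fell by 2.43 ± 0.13. The limma adjusted *P*-values of these steps were 2.02e-11, 1.06e-09, 0.00109 and 2.69e-08. On this scale the *Dbp* rise is understated, since the pseudocount of 1 is above all 3 ZT1 values, and with a pseudocount of 0.1 it was 7.50 ± 0.31.

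From ZT5 to ZT9, 1.54% of the genes tested were called and *Tef* rose by 0.63 ± 0.11 (limma adjusted *P*-value 0.00769). The difference for *Dbp* was of like size, 0.65 ± 0.18, without overlap between the livers, but did not pass the limma threshold (adjusted *P*-value 0.0921). The means of *Nfil3* at these times were 12.1 and 11.7. From ZT9 to ZT13, where 9.23% were called, *Dbp* fell by 3.05 ± 0.18 and *Tef* by 0.60 ± 0.11, while *Nfil3* rose by 1.12 ± 0.13, with limma adjusted *P*-values of 1.45e-07, 0.0031 and 0.000172. *Hlf* had 1.22-fold higher values at ZT13 than at ZT9, which the limma test did not call (adjusted *P*-value 0.192).

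From ZT13 to ZT17, where 1.2% were called, *Dbp* fell by 2.21 ± 0.18 and *Tef* by 0.64 ± 0.11, with limma adjusted *P*-values of 3.09e-05 and 0.0114. The *Tef* call was lost without the first ZT17 liver (0.0508 in limma). From ZT17 to ZT21, where 1.51% were called, *Tef* fell by 0.79 ± 0.11 and *Hlf* by 0.60 ± 0.13, with limma adjusted *P*-values of 0.0045 and 0.0324. The *Hlf* call was lost when the first or the second ZT17 liver or the first or the third ZT21 liver was left out, with limma adjusted *P*-values of 0.0824 to 0.14. From ZT21 to ZT1, where 19 genes or 0.131% were called, *Tef* fell by 1.16 ± 0.11 (limma adjusted *P*-value 0.000204). *Tef* thus changed at all 6 steps. The *Nfil3* mean went from 26.6 at ZT13 to 69.3 at ZT1 over 3 steps, none of which was called by itself, with limma adjusted *P*-values of 0.0714, 0.675 and 0.0813. *Dbp* at ZT21, 0.937 ± 0.392 (SD, n = 3), was 3.04-fold its ZT1 mean, with a limma adjusted *P*-value of 0.36.

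**Figure D2:**
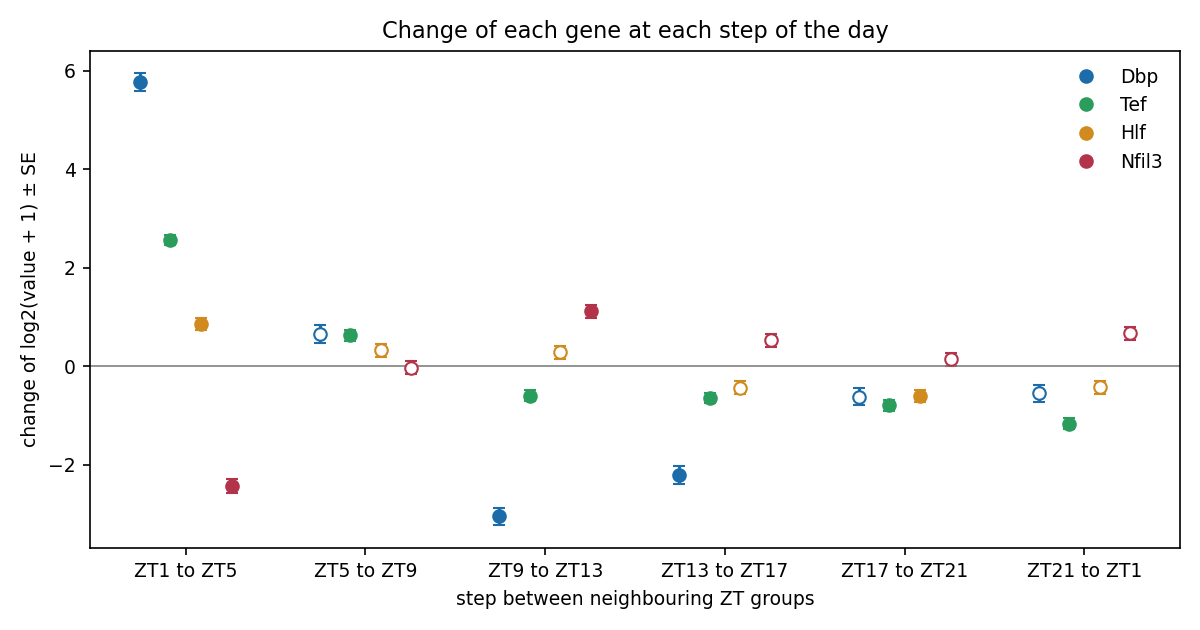
Change of log2(value + 1) with its SE at each of the 6 steps between neighbouring times, 1 colour per gene; filled symbols were called by limma at an adjusted *P*-value under 0.05 and open ones were not. All 4 genes have filled symbols from ZT1 to ZT5, from 5.77 for *Dbp* to -2.43 for *Nfil3*, and *Tef* has filled symbols at all 6 steps.

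Levels of different genes were compared per kb of exon, using all exon bases of each gene in GENCODE M21 (2993 for *Dbp*, 7867 for *Tef*, 6681 for *Hlf* and 2026 for *Nfil3*). The summed level per kb of the 3 PAR bZIP genes was 7.97 ± 0.477 (SD, n = 3) at ZT1, 53.0 ± 8.82 at ZT5 and 79.8 ± 2.19 at ZT9. It was 38.1 ± 1.45 at ZT13, 23.6 ± 0.987 at ZT17 and 14.2 ± 1.35 at ZT21. *Dbp* made up 44.5% of this sum at ZT5 and 46.3% at ZT9, but 11.1% at ZT13 and 1.30% at ZT1. *Tef* held between 40.1% and 58.4% at every time, and *Hlf* went from 12.7% at ZT9 to 55.2% at ZT1. The RNA of the family was thus mostly *Dbp* and *Tef* at ZT5 and ZT9 and mostly *Tef* and *Hlf* at the other times.

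The ratio of this sum to *Nfil3* per kb was 0.238 ± 0.0535 (SD, n = 3) at ZT1, 9.24 ± 3.23 at ZT5 and 13.9 ± 1.71 at ZT9, then 2.92 ± 0.296 at ZT13, 1.24 ± 0.176 at ZT17 and 0.671 ± 0.0354 at ZT21. At ZT5 the third liver had 12.96, against a lowest of 7.35. All 3 livers of ZT1 and of ZT21 were below 1 and all other livers above 1. With the length of the longest coding transcript in place of all exon bases, an alternative chosen after seeing the data, the ratios were 0.345, 15.01, 22.7, 4.59, 1.92 and 1.03 in the same order, so the side of 1 at ZT21 depends on the length used. These are ratios of RNA, and protein was not measured.

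**Figure D3:**
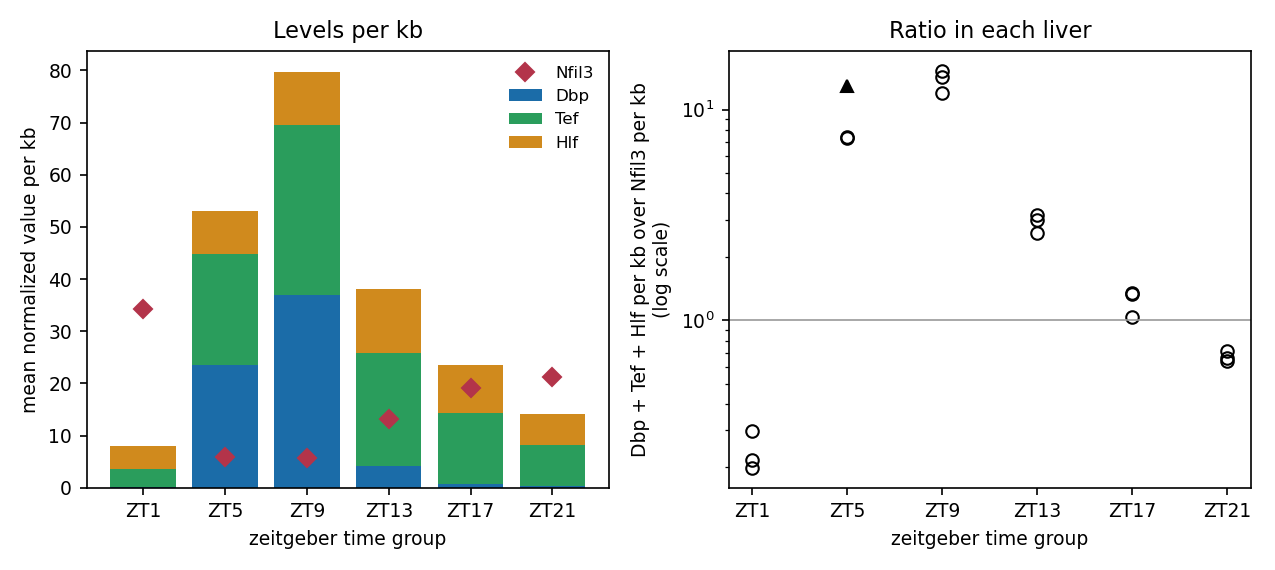
Left, mean normalized value per kb of exon of *Dbp*, *Tef* and *Hlf*, stacked, at each ZT (bars start at 0), with *Nfil3* as diamonds; right, on a log axis, the ratio of the sum of the 3 genes to *Nfil3* in each liver, with a line at 1 and the third ZT5 liver as a triangle. The mean ratio runs from 0.238 at ZT1 to 13.9 at ZT9.

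Over the 18 livers, on log2(value + 1), Pearson's r was 0.87 between *Dbp* and *Tef*, 0.88 between *Tef* and *Hlf* and 0.62 between *Dbp* and *Hlf*. *Nfil3* had an r of -0.97 to *Dbp*, -0.89 to *Tef* and -0.64 to *Hlf*. These values describe genes measured in the same libraries at the same 6 times, so the livers of a time are not separate evidence. Among genes with a mean of at least 1, those most like *Dbp* included *Nr1d2*, which encodes REV-ERBβ (0.97), *Narf* (0.95) and *Tns2* (0.95), and those most opposite included *Nfil3* (-0.97) and *Arntl*, which encodes BMAL1 (-0.97). *Tef* was most like *Per3*, a period gene of the clock (0.99), *Gys2*, the liver glycogen synthase (0.97), and *Upp2*, a uridine phosphorylase (0.96), and most opposite to *Arl4a* (-0.95), *Mad2l2* (-0.94) and *Aasdhppt* (-0.93). The genes most like *Hlf* included *Bnip3* (0.95) and *Dgat2*, an enzyme of triglyceride synthesis (0.94), and *Hlf* was most opposite to *Mad2l2* (-0.94), *Ccdc162* (-0.94) and *Spon2* (-0.93). The genes most like *Nfil3* included *Arntl* (0.94) and *Chka*, a choline kinase (0.93), and *Nfil3* was most opposite to *Dbp* (-0.97), *Tns2* (-0.93) and *Narf* (-0.93).

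The factors known to act upstream of these genes were read from the same fits. Of 11 such genes, 10 were called by the 24 h cosine, against 35.3% of all genes, with a median amplitude of 1.17 over the list. *Arntl* had its highest mean, 31.6 ± 1.88 (SD, n = 3), at ZT1 and its lowest, 1.31 ± 0.296, at ZT9, the same times as *Nfil3*. *Nr1d1*, which encodes REV-ERBα, was highest at ZT5 (117 ± 25), where *Nfil3* was already low, and peaked at ZT 6.20 h in the fit. *Rora* was not called by the cosine (limma adjusted *P*-value 0.0594) but was by the *F* test over times (0.0309 in limma). That *F* test called all 11, against 26.3% of all genes, while JTK called 7, against 14.1%. The cosine called 11 with a prior variance that follows the mean or with scaling to column totals, and 9 without any 1 ZT1 liver.

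Of 7 clock genes with a D-box, *Rorb* was not in the table and 5 of the other 6 were called by the cosine, against 35.3% of all genes, with a median amplitude of 1.63. The *F* test called 6 of the 6, against 26.3% of all genes, and JTK 4, against 14.1%. *Per3* peaked at ZT 10.8 ± 0.43 h (SE), beside *Tef*, and went from 1.80 at ZT1 to 56.7 at ZT9. *Per1* peaked at 11.6 ± 0.85 h and *Per2* at 13.9 ± 0.26 h, so the fitted peaks of the 3 period genes lay after that of *Dbp*. The other called genes of this list did not. *Nr1d1* peaked at 6.20 ± 0.17 h, before *Dbp*, and *Nr1d2* at 8.29 ± 0.23 h, close to *Dbp* at 8.59 ± 0.36 h.

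Liver genes tied in the literature to PAR bZIP factors or to NFIL3 were called by the cosine in 12 of 15 cases, against 35.3% of all genes, with a median amplitude of 0.76. The *F* test over times called 10 of the 15, against 26.3% of all genes. JTK called 4, against 14.1% of all genes, and these were *Por*, *Cyp2a5*, *Cyp2b10* and *Lpl*. Of the 12, 9 peaked after ZT 12 h and 3 before, where of all called genes 2469 peaked after and 2634 before. *Por*, the reductase that passes electrons to cytochrome P450 enzymes, peaked at ZT 11.9 ± 0.37 h (SE), beside *Hlf*, with 91.8 ± 16.7 (SD, n = 3) at ZT1 and 488 ± 108 at ZT13. *Cyp2a5*, a drug-metabolizing P450, peaked at 13.0 ± 0.41 h and went from 133 ± 9.62 at ZT1 to 1010 ± 345 at ZT13. *Alas1*, the first enzyme of haem synthesis, peaked at 13.2 ± 1.0 h, *Nr1i3*, which encodes the xenobiotic receptor CAR, at 13.3 ± 0.81 h, and *Cyp7a1*, the rate-limiting enzyme of bile acid synthesis, at 15.3 ± 0.75 h. *Cyp2b10*, another P450, peaked at 17.5 ± 0.50 h. The thioesterases *Acot3* and *Acot4* peaked at 13.4 ± 0.83 h and 13.5 ± 0.84 h, *Acot1* at 18.6 ± 0.81 h and the P450 gene *Cyp2c29* at 19.3 ± 1.1 h. *Fgf21*, a hormone of fasting, and *Lpl*, the lipoprotein lipase, peaked at 2.65 ± 1.0 h and 2.94 ± 0.66 h, ahead of all 3 PAR bZIP genes. *Fgf21* had a mean of 1.03 over all livers, close to the pseudocount of 1. *Lpl* had 62.75 ± 50.6 (SD, n = 3) at ZT5, its highest time. The *F* test over times did not call *Fgf21*, *Acot4* or *Alas1* (limma adjusted *P*-values 0.0681, 0.0694 and 0.0828). *Acot2*, *Cyp2a4* and *Cyp2b9* were not called (limma adjusted *P*-values 0.0845, 0.32 and 0.404). Reads of *Cyp2a4* and *Cyp2a5*, of *Cyp2b9* and *Cyp2b10*, of *Cyp2c29* and its neighbours and of the *Acot* genes may be shared between related genes. This was not tested, so their split is uncertain.

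Of the related C/EBP bZIP family, *Cebpd* was not in the table, and *Ddit3* and *Cebpa* were the 2 called by the cosine of the other 5, a share near the 35.3% of all genes, with a median amplitude over the 5 of 0.24. The *F* test over times called 2 of the 5, against 26.3% of all genes, with *Cebpa* not among them (limma adjusted *P*-value 0.121). JTK called 0 of the 5, against 14.1% of all genes, with 1 under 0.05 before adjustment. *Cebpa* went from 220.0 ± 9.43 (SD, n = 3) at ZT1 to 297 ± 32.04 at ZT9, a ratio of 1.35, and *Cebpg* stayed between means of 58.6 and 62.0 (limma adjusted *P*-value 0.97). Between 1 and 3 of the 5 were called when single livers were left out.

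Markers of cell types were read from the same fits, where the cosine called 35.3% of all genes, the *F* test 26.3% and JTK 14.1%. Counts before adjustment are given without a share of all genes. Of the 5 hepatocyte markers 2 were called by the cosine, and 1 each by the *F* test over times and by JTK. Of 5 Kupffer cell markers 2 were called by the cosine, 1 by the *F* test and 0 by JTK (2 by JTK before adjustment), and their summed value ranged from 176 to 215 over the ZT9 livers and from 86.0 to 133 over the ZT21 livers. Of 5 sinusoidal endothelial markers 2 were called by the cosine and 0 by the limma *F* test and by JTK (1 and 0 before adjustment), with sums of 152 to 190.4 at ZT5 and 81.8 to 128 at ZT21. At ZT1, where *Dbp*, *Tef* and *Hlf* were lowest, the Kupffer sum was 98.0 to 203, with a mean of 147 against 199 at ZT9. The endothelial sum was 102 to 158 at ZT1, with a mean of 125 against 168 at ZT5. In both cases the means were lower at ZT1 but single livers overlapped. The markers called by the cosine had fitted peaks at 8.22 h (*Cd5l*), 8.52 h (*Marco*), 7.88 h (*Stab2*) and 6.91 h (*Kdr*), where *Dbp* had 8.59 h. Of 4 cholangiocyte markers 3 were called by the cosine and 1 each by the other tests, and the sum was 11.7 to 15.1 at ZT1 and 6.04 to 7.87 at ZT9. Most of this sum was *Sox9*, with 9.18 ± 1.63 (SD, n = 3) at ZT1 and 3.10 ± 0.697 at ZT9, highest and lowest at the same times as *Nfil3*. The means of *Krt19*, 1.88 at ZT1 and 1.105 at ZT9, and of *Krt7*, 1.09 and 0.663, had the same order. *Epcam* alone had the opposite order, with 0.946 ± 0.405 at ZT1 and 1.79 ± 0.877 at ZT9. The *F* test over times did not call *Epcam* (limma adjusted *P*-value 0.216). Of 5 stellate cell markers and 4 lymphocyte markers none was called by the limma cosine, the *F* test or JTK after adjustment (1 of each list by the cosine before it, and 0 and 2 by the *F* test), and the lymphocyte sum was between 1.69 and 5.05 in all livers, with *Cd3e* and *Nkg7* not in the table. The part of these cells in the levels of the 4 genes was not tested.

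The library kit does not keep the strand, and *Dbp* shares 539 exon bases with *Sphk2* on the opposite strand, whose reads there cannot be told apart from its own. *Sphk2* was between 27.1 and 54.9 in all livers, with a mean of 44.5 ± 4.95 (SD, n = 3) at ZT1, where *Dbp* had 0.308, and 30.1 ± 3.64 at ZT9. *Tef* shares 193 exon bases with the antisense gene *Gm17597*, which was between 0.0346 and 1.15.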

How the data were processed

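RNA of 18 livers was sequenced as single reads on a HiSeq2500 from NEBNext Ultra libraries. Per the labels and the paper's methods, the authors used CASAVA 1.8.2, Cutadapt and RSEM 1.2.20 on the transcriptome of GRCm38 (Ensembl 84), and limma for normalization of the estimated counts. Each deposited value is a signal, which was read as the estimated count plus 0.5 per 1000000 of an effective library size. The offset and the scale are inferred from the lowest value of each column and from limma's usual transformation, and no source used here states them. On that reading 39.1% to 47.9% of the values per liver were whole reads within 0.005, so no count test was run. Column totals were 941088 to 1077229. Of 14451 genes in the table, 2 had no reads in any liver and were left out.

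Groups are the labelled zeitgeber times, and livers are numbered in the order listed. limma 3.58.1 in R 4.3.3 tested log2(value + 1), a scale that understates changes of low genes, over all 14449 genes with Benjamini-Hochberg adjustment (within each step for the steps). Peak hours and their errors came from the cosine and sine terms by the delta method. JTK, one of the rhythm tests of the study, was rewritten in Python 3.11.15 (numpy 2.4.6, scipy 1.17.1, pandas 2.3.3) with 18 orders of 20, 24 and 28 h. The study's CircaN was not rerun, since the text does not give the constants of its curves. Scripts were tested on simulated data. The members and the lists were chosen with earlier results of these data known. Named genes are the members, the genes of the lists and, for each member, the 3 genes with the highest and the 3 with the lowest r. Some of these are not reported here. Alternatives were a pseudocount of 0.1, a prior variance that follows the mean, a filter at a mean of 1, scaling to column totals, a test on the linear values, JTK at 24 h only, another JTK null and leaving out each liver. Intervals from reads cover counting error only.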

Additional observations from a re-analysis of the deposited data

How the results depend on the processing

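The calls of all 4 genes by the test over times and by the 24 h cosine, and the 12 h calls of *Dbp*, *Tef* and *Nfil3*, held under every alternative run and without any 1 liver. Of 528 step values recomputed, 518 stayed on their side of the threshold, 5 lost a call and 5 gained one. Of the steps called at first, 0 changed direction. The *Nfil3* difference from ZT5 to ZT9, which was not called, ranged from -0.158 to 0.0554 without single livers. The gained calls were *Nfil3* from ZT13 to ZT17 and from ZT21 to ZT1, with a prior variance that follows the mean (limma adjusted *P*-values 0.0355 and 0.0295), without the third ZT5 liver (0.0492 and 0.0493) and, for the latter step, without the first ZT1 liver (0.0478). With a pseudocount of 0.1 the *Dbp* amplitude was 3.96, its peak hour 8.97, the lag from *Dbp* to *Tef* 1.73 h and that from *Dbp* to *Nfil3* 11.72 h. C/EBP genes called ranged from 1 to 3 without single livers. Over all genes, the 12 h term called 76 with a pseudocount of 0.1 and 32 to 114 without single livers, and JTK called 3237 with equal cosine values taken as 1 group, an alternative chosen after seeing the data, and 1266 without the second ZT5 liver. No paired analysis was possible because each liver is a different mouse and the replicate numbers only follow the order of the samples. At ZT1, *Dbp* rests on 1.05 to 4.38 estimated reads per liver, which limits how exactly its lowest level is known.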
